A study of Mus musculus with 119 samples.

Results

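The data described here compare bone marrow–derived macrophages (BMDMs) that express kinase-inactive TPL-2 with wild-type (WT) BMDMs, both stimulated with LPS for 1 h. The members are 12 RNA-seq libraries, beside 107 others in the series, whose labels give 1 h of LPS and either the Map3k8[D270A] genotype (6 libraries, replicates 1 to 6) or the WT genotype without an inhibitor (6 libraries, replicates 4 to 9). BMDMs are macrophages grown in culture from bone marrow, and LPS, a cell wall component of Gram-negative bacteria that activates the receptor TLR4, was given at 100 ng/ml in medium low in serum. Map3k8[D270A] cells came from mice with a germline point mutation, D270A, in both copies of Map3k8. The mutation is therefore present in every cell type of the animal and not in macrophages alone. The methods give a C57BL/6 background, reached by backcrossing, for the mutant line, and the labels name the C57BL/6(NIMR) strain. The sources used here give no age for the mice. The methods call the libraries biological replicates, but no source used here ties a library to an animal, so p-values measure only the spread between these libraries, which may in part be technical.

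TPL-2 is the kinase encoded by Map3k8. In resting macrophages it is held by NF-κB1 p105, and after TLR4 stimulation the IκB kinase complex phosphorylates p105 and frees TPL-2, which then phosphorylates the MAPK kinases upstream of ERK1/2. ERK1/2 activate ternary complex factors such as ELK1 and ELK4, which sit with serum response factor (SRF) at immediate early genes, among them the EGR and FOS families. FOS pairs with JUN proteins as AP-1. Macrophage IFN-β, encoded by Ifnb1, is induced by TLR4 through IRF3, NF-κB and AP-1 family factors. The question of the comparison is which early LPS-induced genes depend on the catalytic activity of TPL-2.

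Values are normalized levels on a log2 scale, 1 per gene and library, and a difference is the mean of the Map3k8[D270A] libraries minus the mean of the WT libraries. A figure legend of the paper names log2-transformed normalized counts, but no source used here says how the deposited values were transformed. If differences between libraries were in natural logarithms, a 2-fold change would stand at 0.693 and not at 1. The deposited values carry no read counts, so depth is unknown and precision was judged from the replicates. A point mutation need not alter mRNA, so the level of Map3k8 does not check the genotype. Map3k8 (chromosome 18, 4331325 to 4352953 in mm10, which is GRCm38) ranged from 9.47 to 9.63 (median 9.57) in WT and from 9.53 to 9.61 (median 9.58) in mutant libraries at 1 h. The groups overlapped throughout, with a difference of 0.01 ± 0.05 (SE) that did not pass the test (adjusted p = 0.954).

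All 12 libraries had the markers of macrophages. Of 16 markers listed, 15 are named in the file and passed the filter on low values, and Csf1r, Adgre1 and Cd68 averaged 15.22, 15.22 and 15.38 in WT libraries. The summed level of the list, led by lysozyme Lyz2, was 18.84 to 18.99 in WT and 18.73 to 18.88 in mutant libraries. Of these members 2 of 15 were lower in mutant cells (13.3%, against 4.64% of all genes tested): the LPS coreceptor Cd14 by -0.39 ± 0.07 and Lyz2 by -0.14 ± 0.05. The part of this shift in the results below was not tested. Of the markers of neutrophils, dendritic, T, NK, B, erythroid, stromal and mast cells, none differed between the genotypes at an adjusted p below 0.05, and most lay below the filter. In all 12 libraries Xist was between -1.36 and -1.29 and the Y-linked gene Ddx3y between 10.87 and 11.01. The largest component of variation among the 12 libraries, 33.1% of the variance, separated replicates within each genotype: WT 4 to 6 from WT 7 to 9, and mutant 1 to 3 from mutant 4 to 6. The next component, 20.6%, set the genotypes apart within each of these groups of replicates, but not across them. The labels name no batch, and these groups of replicates (the first and the second below) were known from earlier results of the same data. That WT 4 to 6 belong with mutant 1 to 3, and WT 7 to 9 with mutant 4 to 6, is an assumption on which each difference within a group rests. Most differences below are over both groups together. Those within each group are printed for some genes, mainly where the groups are compared at the end of these results. They are plotted there for every gene at least 2-fold lower or higher at 1 h.

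Of 11884 genes tested with limma, 29 were lower in Map3k8[D270A] macrophages by 2-fold or more at 1 h of LPS (0.244% of genes tested) and 5 at least 2-fold higher (0.0421%), at an adjusted p below 0.05. At 0.693, where a 2-fold change would stand on a natural logarithm, the counts were 64 and 12. By adjusted p alone 552 genes were lower (4.64%) and 611 higher (5.14%), and the median difference over all genes tested was -0.001. Counts of list members below are to be set beside these shares. The balance of the counts by adjusted p depended on the fit, with 424 lower and 643 higher after quantile normalization and 925 and 544 with the replicate number as a block. The shared numbers fall in the first group of replicates in WT and in the second in mutant cells. Within a number, the block thus compares groups as well as genotypes. Past 2-fold, most of the genes called were lower. The 29 genes held transcription factors (Egr1, Egr3, Fos, Fosb, Fosl1, Maff, Nr4a1, Klf2, Cebpb), secreted cytokines (Lif, Il23a, Csf2, Il1a, Il1b), inhibitors of receptor and MAPK signaling (Errfi1, Dusp5) and the prostaglandin synthase Ptgs2. The 5 higher genes were Ifnb1, Cables1, Ankrd29, Phyhip and Gfra2. In 295 of all genes tested every mutant library lay below every WT library (2.48%), and in 290 above (2.44%). Of the 29 lower genes 26 were so separated (the exceptions were Tnfsf4, Adamts4 and Rn45s), as were all 5 higher genes.

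**Figure D1:**
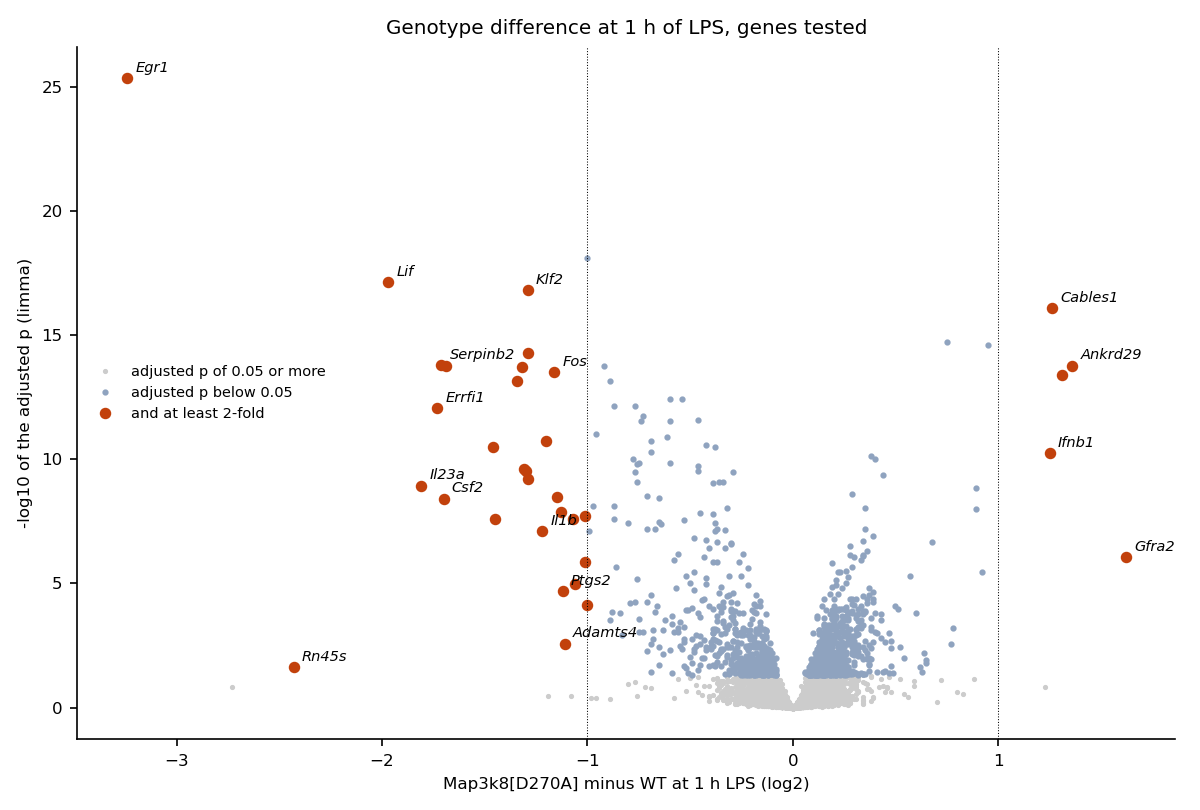
Difference between Map3k8[D270A] and WT macrophages at 1 h of LPS (x axis, log2) against -log10 of limma's adjusted p (y axis), 1 point per gene tested. The 29 genes at least 2-fold lower and the 5 at least 2-fold higher are in orange, and dotted lines stand at -1 and 1. Egr1 lies apart from the other genes at -3.24. The blue point at the left dotted line is Btg2, just under 2-fold.

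The gene with the smallest p was Egr1, a zinc finger transcription factor and classic immediate early gene (chromosome 18, 34861207 to 34864956). Its level ranged from 11.19 to 11.62 (median 11.36) in the 6 WT libraries and from 7.78 to 8.45 (median 8.17) in the 6 mutant libraries. The groups were separated by a gap several times their own range, and the difference of -3.24 ± 0.13 (adjusted p = 4.65e-26) is a 9.46-fold lower level. Compared with unstimulated cells of the same genotype, Egr1 was 3.41 higher at 1 h of LPS in WT cells (adjusted p = 3.09e-29). In mutant cells that LPS difference was 0.00 (adjusted p = 0.997). The mean mutant level was 8.15 without LPS, 8.91 at 0.5 h and 8.15 at 1 h.

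Of the 8 EGR and NR4A genes and EGR corepressors that passed the filter, 5 were lower, none was higher, and the median difference was -0.45. Egr3 (chromosome 14, 70077317 to 70082613), a close relative of Egr1, was 9.79 to 10.21 (median 10.04) in WT and 8.10 to 8.63 (median 8.28) in mutant libraries. Every mutant library lay more than 1 below every WT library, and the difference was -1.69 ± 0.13 (adjusted p = 1.81e-14). Nr4a1, an orphan nuclear receptor, was lower by -1.07 ± 0.14, and Nab1 and Nab2, which encode corepressors that bind EGR proteins, by -0.25 ± 0.04 and -0.65 ± 0.08. Nab2 did not pass in the second group of replicates alone (-0.42, adjusted p = 0.144). Egr2 differed by -0.02 ± 0.15 (adjusted p = 0.967) at a WT level of 12.52, which was higher than that of Egr1 on the same scale without correction for gene length. Within the EGR family Egr1 and Egr3 thus passed the test and Egr2 did not. The difference between members was not tested.

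In the AP-1 family and its partners 8 of 19 genes were lower and 1 higher, with a median of -0.19. Fos (chromosome 12, 85473890 to 85477274), whose product heterodimerizes with JUN, was 11.17 to 11.85 (median 11.55) in WT and 10.17 to 10.57 (median 10.37) in mutant libraries. The groups did not overlap, and within WT the first 3 libraries were the lowest. The difference was -1.16 ± 0.09 (adjusted p = 3.06e-14). From the unstimulated level, Fos stood 0.85 higher in WT cells and -0.41 lower in mutant cells at 1 h, both past the test (adjusted p = 2.30e-11 and 2.89e-04). Fosb and Fosl1, the other FOS family members called, were lower by -1.29 ± 0.14 and -1.01 ± 0.15, and Fosl2 differed by -0.23 ± 0.11 (adjusted p = 0.202). Among JUN genes, Junb and Jund were lower by -0.65 ± 0.08 and -0.31 ± 0.06, while Jun differed by 0.01 ± 0.09 (adjusted p = 0.978). The bZIP repressor genes Maff and Jdp2 were lower by -1.15 ± 0.14 and -0.69 ± 0.07. Jdp2 did not pass in the second group of replicates alone (-0.44, adjusted p = 0.0724). Atf4, a factor of the integrated stress response, was the higher member (0.13 ± 0.04), a share near the 5.14% of all genes tested, and no member was higher in either group of replicates alone or without WT 7 or mutant 2.

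Of 22 other early transcription factor and regulator genes tested, 15 were lower and 1, Klf11, was higher (0.33 ± 0.06), with a median of -0.41. The share that was higher is near the 5.14% of all genes tested. Klf2 (chromosome 8, 72319062 to 72321654), a Krüppel-like factor that restrains macrophage activation, was 8.72 to 9.10 (median 8.89) in WT and 7.47 to 7.83 (median 7.60) in mutant libraries. The groups were separated, and the difference was -1.29 ± 0.08 (adjusted p = 1.54e-17). LPS moved Klf2 in opposite directions at 1 h: 0.24 above the unstimulated level in WT cells and -0.87 in mutant cells, both past the test (adjusted p = 0.0153 and 4.59e-13). Ier3 (chromosome 17, 35821713 to 35822911), an early response gene linked to apoptosis and ERK signaling, was 10.03 to 10.57 (median 10.25) in WT and 8.74 to 9.08 (median 8.99) in mutant libraries. The groups did not overlap, and the difference was -1.32 ± 0.11 (adjusted p = 1.96e-14). Kdm6b, a histone H3 lysine demethylase induced by LPS, was lower by -1.31 ± 0.14, and Cebpb by -1.01 ± 0.13, to which mutant replicate 2 contributed the highest mutant level (11.67, against 10.56 to 11.10 in the other 5). Among genes under 2-fold, the antiproliferative gene Btg2 (12.28 in WT and 11.28 in mutant cells) and the early gene Ier2 (-0.89 ± 0.07) were among the 5 lower genes with the smallest p, and Myc was lower by -0.74 ± 0.07.

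Of 19 genes tested that damp ERK1/2 or receptor tyrosine kinase signaling, 9 were lower, 10 did not pass and none was higher, with a median of -0.35. Errfi1, which encodes an inhibitor of the EGF receptor, was lower by -1.73 ± 0.15 (3.31-fold) from a WT mean of 13.30 ± 0.12 (SD, n = 6). Phlda1 was lower by -1.46 ± 0.15, and Spry2, a Sprouty inhibitor of the RAS pathway, by -0.73 ± 0.07. Not all MAPK phosphatase genes passed the test. Dusp5, whose product inactivates nuclear ERK1/2, was lower by -1.06 ± 0.17, and Dusp1, Dusp2, Dusp4, Dusp6 and Dusp7 by -0.52 to -0.86, whereas Dusp16 differed by -0.04 ± 0.06 (adjusted p = 0.78) and Dusp10, a phosphatase of p38 and JNK, by 0.22 ± 0.08 (adjusted p = 0.0604). Of 22 genes that encode TPL-2, the kinases above and below it and their transcription factors, 3 were lower: the p38 kinase kinase gene Map2k3 (-0.46 ± 0.04), Nfkb1 (-0.22 ± 0.06), which encodes p105, and Srf (-0.18 ± 0.04). The median of that list was -0.02, and 13.6% of it was lower, against 4.64% of all genes tested. Nfkb1 did not pass in a fit of the 12 libraries alone (adjusted p = 0.15) or without WT 4 or WT 6 (0.0801 and 0.076), Srf did not pass in either group of replicates alone, and none of the list passed in the second.

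**Figure D2:**
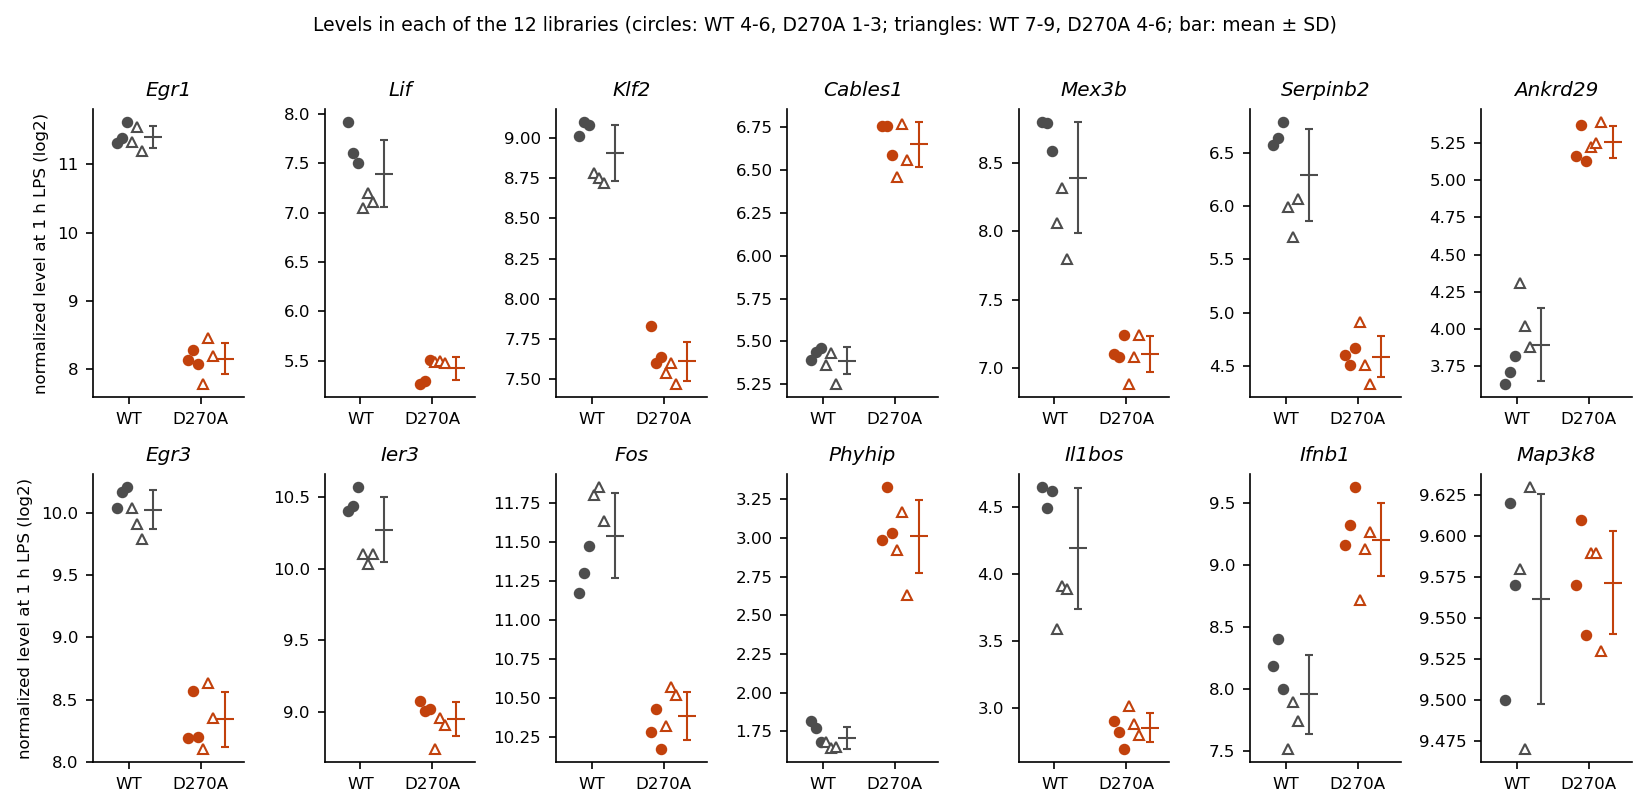
Normalized level at 1 h of LPS (y axis, log2) in each library for the 12 called genes with the smallest p and for Ifnb1 and Map3k8, WT in gray and Map3k8[D270A] in orange. Circles are WT 4 to 6 and mutant 1 to 3, triangles are WT 7 to 9 and mutant 4 to 6, and bars give mean ± SD (n = 6). The genotypes do not overlap for any gene shown except Map3k8, and each panel has its own y axis that does not start at 0.

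Among cytokine genes 8 of 20 tested were lower and none was higher, with a median of -0.34. The largest difference was in Lif (chromosome 11, 4257568 to 4272514), which encodes a cytokine of the IL-6 family. It was 7.05 to 7.92 (median 7.35) in WT and 5.26 to 5.51 (median 5.48) in mutant libraries. The mutant libraries lay close together, the WT libraries of the first group above those of the second, and the difference was -1.97 ± 0.13 (adjusted p = 7.44e-18). Osm, of the same family, was lower by -0.78 ± 0.08, but did not pass in the second group of replicates alone (-0.81, adjusted p = 0.0891). Il23a, which encodes the p19 chain of IL-23, was lower by -1.81 ± 0.20, and Csf2, which encodes GM-CSF, by -1.70 ± 0.20. The IL-1 genes Il1a and Il1b were lower by -1.45 ± 0.18 and -1.22 ± 0.16, from WT means of 12.39 and 15.03, while Il1rn, which encodes their receptor antagonist, differed by -0.12 ± 0.15 (adjusted p = 0.721). Tnf was lower by -0.57 ± 0.10 (adjusted p = 1.54e-05), a 1.49-fold change, from 16.26 ± 0.10 to 15.69 ± 0.04 (SD, n = 6 each). Il10 was lower by -0.53 ± 0.12 (adjusted p = 0.00229), with overlapping groups: 9.46 to 10.18 in WT and 8.74 to 9.63 in mutant libraries. It did not pass in a fit of the 12 libraries alone (adjusted p = 0.083), of every library in the series (0.0624) or of the first or second group of replicates (0.165 and 0.0606). The IL-12 p40 gene Il12b differed by 0.03 ± 0.25 (adjusted p = 0.971).

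The antisense transcript Il1bos (chromosome 2, 129369902 to 129375733) overlaps Il1b on the opposite strand and was 3.59 to 4.65 (median 4.20) in WT and 2.69 to 3.01 (median 2.85) in mutant libraries. Its difference of -1.34 ± 0.11 (adjusted p = 6.82e-14) had the direction of that in Il1b. The methods describe strand-specific reads, but no source used here says whether the counting used the strand, so the reads of the pair may not be fully separated. Tnfsf4, which encodes OX40 ligand, was 2.01-fold lower (adjusted p = 7.42e-05) with overlapping groups (8.11 to 9.51 in WT, 7.14 to 8.27 in mutant libraries).

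Of 19 chemokine genes tested 5 were lower and none was higher, with a median of -0.21 and no member past 2-fold. The count of lower genes was 8 without WT 7 and 8 without WT 8. It was 4 at its lowest with 1 library left out, and 4 in a fit of the 12 libraries alone. Cxcl2, a neutrophil attractant, was lower by -0.80 ± 0.10, Cxcl3 by -0.68 ± 0.15, Ccl22 by -0.65 ± 0.16 and Ccl3 by -0.36 ± 0.09. Cxcl3 and Ccl3 did not pass in the fit of the 12 libraries alone (adjusted p = 0.0533 and 0.0756) or in the second group of replicates (0.217 and 0.343). The interferon-induced chemokine Cxcl10 differed by 0.27 ± 0.13 (adjusted p = 0.223) and Ccl5 by 0.14 ± 0.13 (adjusted p = 0.609).

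In genes for plasminogen activation, matrix and adhesion 9 of 17 were lower and none was higher, with a median of -0.46. The lower genes numbered 6 in a fit of the 12 libraries alone, and 11 and 5 in the first and second group of replicates. Serpinb2 (chromosome 1, 107500892 to 107525600) encodes plasminogen activator inhibitor 2. It was 5.71 to 6.79 (median 6.32) in WT and 4.33 to 4.91 (median 4.56) in mutant libraries. The groups did not overlap, and the difference was -1.71 ± 0.13 (adjusted p = 1.63e-14). The urokinase receptor gene Plaur was lower by -0.71 ± 0.08, the integrin α5 gene Itga5 by -0.60 ± 0.05 and the EGF receptor ligand gene Areg by -0.97 ± 0.12, while the urokinase gene Plau differed by 0.01 ± 0.10 (adjusted p = 0.982). The called protease gene Adamts4 differed by -1.11 ± 0.26 with overlapping groups.

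Mex3b (chromosome 7, 82867333 to 82871576), which encodes an RNA-binding protein, was 7.80 to 8.80 (median 8.46) in WT and 6.88 to 7.24 (median 7.09) in mutant libraries. The groups did not overlap, and the difference was -1.29 ± 0.10 (adjusted p = 5.14e-15). Of 10 mRNA decay genes 3 were lower: Zfp36, which encodes tristetraprolin (-0.96 ± 0.09), Zfp36l2 (-0.36 ± 0.06) and the RNase gene Zc3h12a (-0.29 ± 0.07). The median of that list was near 0. Zfp36l2 did not pass in the first or second group of replicates alone (adjusted p = 0.0519 and 0.217), nor Zc3h12a in the second (adjusted p = 0.204). Of 17 genes of prostaglandin and sphingosine phosphate metabolism 2 were lower, Ptgs2, which encodes cyclooxygenase 2 (-1.12 ± 0.19), and Hpgds (-0.11 ± 0.04), with a median of -0.02. That was 11.8% of the list, against 4.64% of all genes tested. Hpgds did not pass in a fit of the 12 libraries alone (adjusted p = 0.104) or in the first or second group of replicates (0.132 and 0.312). Of 23 receptor and chemoattractant signaling genes 7 were lower and none was higher, with a median of -0.11. They included the nicotinic acid and hydroxybutyrate receptor Hcar2 (-1.30 ± 0.14), the medium-chain fatty acid receptor Gpr84 (-1.13 ± 0.14), Cd14 and Fpr1 (-0.56 ± 0.12), while Tlr4 itself differed by -0.01 ± 0.06 (adjusted p = 0.947). In the first and second group of replicates alone 11 and 3 of this list were lower, and 1 was higher in the second. The genotypes overlapped for Fpr1. It did not pass in the second group alone (adjusted p = 0.334) or with the replicate number as a block (-0.28, adjusted p = 0.256).

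NF-κB subunit and feedback genes were lower in 11 of 19 cases and higher in none, with small differences throughout and a median of -0.21. The count was 6 without WT 4 and 6 without WT 6. Nfkb2 differed by -0.30 ± 0.05, Nfkbib by -0.34 ± 0.06, Nfkbid by -0.62 ± 0.12 and Rela by -0.26 ± 0.06, while Nfkbia and Tnfaip3, which encode IκBα and A20, did not pass the test (-0.12 ± 0.06 and -0.14 ± 0.12). In the first group of replicates alone 16 of these genes were lower, with a median of -0.28, and in the second group none was, with a median of -0.13. Of 8 genes for negative regulators of cytokine signaling 4 were lower, among them Socs1 (-0.63 ± 0.13), Socs3 (-0.53 ± 0.11) and Pim1 (-0.42 ± 0.07), and Socs2 was higher (0.50 ± 0.09). In the first and second group of replicates alone 5 and 1 of this list were lower. Socs1 and Pim1 did not pass in the second (adjusted p = 0.219 and 0.0738).

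None of 18 cell cycle genes passed the test, with Mki67 and Aurka at -0.21 ± 0.20 and -0.19 ± 0.18 and a median of -0.12, which was 0.09 in the first group of replicates (with 2 genes higher) and -0.29 in the second. Of 12 heat shock chaperone genes 3 were lower (Dnajb1, Hspa5 and Dnaja1, by -0.36 to -0.13), and of 13 cytoskeletal genes that SRF controls with its actin-regulated partners 1 was (Actg1, -0.10 ± 0.03). Both medians were 0.02, and 25% and 7.69% of these lists were lower, against 4.64% of all genes tested. Hspa5, Dnaja1 and Actg1 did not pass in a fit of the 12 libraries alone (adjusted p = 0.0569, 0.0685 and 0.0592), which left Dnajb1. None of 4 Y-linked genes tested passed the test (Uty -0.05 ± 0.05, Ddx3y -0.02 ± 0.05).

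**Figure D3:**
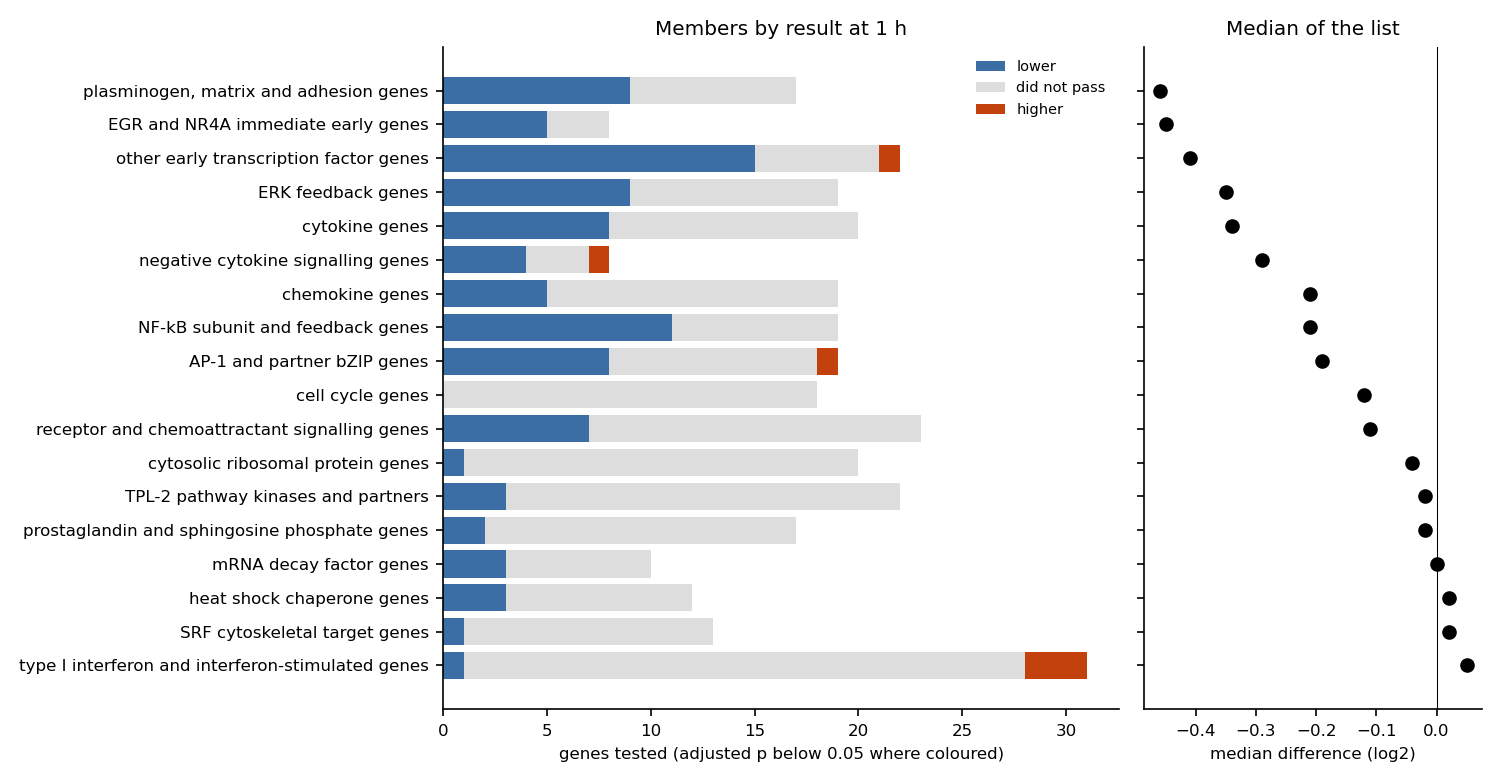
Gene lists at 1 h of LPS. Left, number of tested members (x axis) that were lower in Map3k8[D270A] cells at an adjusted p below 0.05 (blue), did not pass (gray) or were higher (orange). Right, median difference of the list (log2). Medians run from -0.46 for plasminogen, matrix and adhesion genes to 0.05 for type I interferon and interferon-stimulated genes, against -0.001 over all genes tested.

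Ifnb1 (chromosome 4, 88522025 to 88522794) was higher in mutant cells, unlike the 8 cytokine genes that were lower. It was 7.51 to 8.40 (median 7.94) in WT and 8.72 to 9.63 (median 9.21) in mutant libraries. The groups did not overlap, and the difference was 1.25 ± 0.13 (adjusted p = 5.60e-11). LPS raised Ifnb1 in cells of both genotypes at 1 h, by 3.34 in WT and 4.60 in mutant cells. Of 31 genes of the type I interferon pathway tested 3 were higher, 1 was lower and 27 did not pass, with a median of 0.05. Over all genes tested 5.14% were higher and 4.64% lower, and of this list 3.23% were lower. These counts are not read as a result about the list. The other higher members were Ifit1 (0.44 ± 0.14, adjusted p = 0.0361) and Irf1 (0.28 ± 0.09, adjusted p = 0.0453). The lower one was Irf3 (-0.39 ± 0.04, adjusted p = 9.21e-10), which encodes the factor that TLR4 activates at the Ifnb1 promoter. Isg15 and Mx1, which interferon induces, differed by -0.04 ± 0.09 and 0.22 ± 0.21 (adjusted p = 0.878 and 0.602). The Ifna genes listed lay below the filter. At 1 h the raised interferon mRNA was thus seen beside few differences in interferon-stimulated genes, and Ifit1 and Irf1 did not pass under 14 and 13 of 25 other settings.

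The other 4 higher genes differed alike with and without LPS. Cables1 (chromosome 18, 11839274 to 11945627), which encodes a cyclin-dependent kinase adaptor, was 5.25 to 5.46 (median 5.41) in WT and 6.46 to 6.77 (median 6.67) in mutant libraries. The groups were fully separate, with a difference of 1.26 ± 0.09 at 1 h (adjusted p = 8.16e-17) and of 1.29 ± 0.09 without LPS. Ankrd29 (chromosome 18, 12252357 to 12306013) was 3.63 to 4.31 (median 3.85) in WT and 5.13 to 5.39 (median 5.24) in mutant libraries. Its groups did not overlap either, and the difference was 1.36 ± 0.11 (adjusted p = 1.68e-14). Phyhip (chromosome 14, 70457517 to 70468826) was 1.64 to 1.82 (median 1.68) in WT and 2.63 to 3.33 (median 3.01) in mutant libraries. The difference was 1.31 ± 0.11. WT levels of Phyhip lay below the filter on low values at every time (at most 1.84), so it was tested only through libraries of other genotypes. The separation of its groups is therefore a description. Gfra2 (chromosome 14, 70890107 to 70979840), a GDNF family receptor gene, differed by 1.62 ± 0.24. None of the 4 passed a test of whether the difference at 1 h differed from that without LPS. Among lower genes Lrrc17 was of the same kind (-1.20 ± 0.12 at 1 h, -1.51 ± 0.12 without LPS), though it differed by -1.64 in the first group of replicates and by -0.77 in the second, where it did not pass (adjusted p = 0.0952). Cebpb was also lower without LPS (-0.63 ± 0.13, adjusted p = 0.00213), and its change to 1 h did not pass (adjusted p = 0.513).

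The position of these genes was followed up after their values were seen. Map3k8 lies near one end of chromosome 18. Of 50 tested genes that start within 20 Mb of it, 22 passed the test at 1 h (6 lower and 16 higher, 44%), and 16 did so without LPS (32%). On the rest of chromosome 18 30 of 238 passed at 1 h (12.6%) and 4 without LPS (1.68%), and on the other chromosomes 9.61% and 1.31%. Besides Cables1 and Ankrd29, genes of that window among the smallest p under 2-fold were Abhd3 (0.95 ± 0.07), Ttc39c (0.44 ± 0.05) and Tmem241 (-0.54 ± 0.05). Whether such differences go with the D270A allele or with other sequence near it cannot be told apart in this design. Phyhip, Gfra2 and Egr3 lie in a window of chromosome 14 from 69 to 72 Mb, which was drawn around them. Of the other 24 genes tested there, 5 passed at 1 h (20.8%) and 2 without LPS (8.33%). Without Cables1 and Ankrd29 (and Map3k8), 42.6% and 29.8% of the window on chromosome 18 passed. Egr3 was itself 0.82 ± 0.13 higher in unstimulated mutant cells (adjusted p = 6.88e-05), the reverse of its direction at 1 h. Genes with the smallest p under 2-fold on other chromosomes included Plk3 (-0.92 ± 0.07), Rgs3 (0.75 ± 0.06), a regulator of G protein signaling, and Zfp111 (0.38 ± 0.04).

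The difference between genotypes changed with the time of LPS. Unstimulated cells and cells at 0.5 h gave 6 libraries of each genotype, and cells at 2 h gave 6 mutant and 4 WT libraries. The difference differed between 1 h and unstimulated cells by at least 1 in 29 genes (0.244% of genes tested), between 1 h and 0.5 h in 12 (0.101%) and between 1 h and 2 h in 32 (0.269%). Of the 29 genes called lower at 1 h, 25 passed the test of a change from unstimulated cells, all but Lrrc17, Cebpb, Adamts4 and Rn45s, and their median difference was -0.01 before stimulation and then -0.63, -1.29 and -1.22 at 0.5, 1 and 2 h. Since the genes were chosen by their difference at 1 h, which is part of that test, the count of 25 is a description. The same choice bears on the tests of called genes below. The median at 1 h is likewise bound to lie past -1, and the medians are a description. They hide several courses. Egr1 differed most at 0.5 h (-4.41), less at 1 h and less again at 2 h (-1.81), and both steps passed the test (adjusted p = 5.32e-05 and 6.56e-07). Fos and Fosb were lower at 0.5 h (-1.04 and -1.47) and 1 h, but at 2 h differed by -0.16 and -0.08, and the change from 1 h to 2 h passed (adjusted p = 6.56e-07 and 4.42e-05). Their WT means at 2 h were 9.13 and 6.66, against 10.69 and 6.62 without LPS. Nr4a1 differed by -1.28, -1.07 and -0.58 at 0.5, 1 and 2 h, with no step past the test (adjusted p = 1 and 0.112).

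Another course began later. Serpinb2, Csf2, Il1bos and Hcar2 differed by 0.07, -0.08, -0.13 and -0.09 at 0.5 h, and for each the change to 1 h passed the test (adjusted p = 5.37e-09, 1.84e-04, 7.08e-07 and 5.41e-05). Their WT means were 3.48, 3.30, 2.20 and 6.14 without LPS and 3.48, 4.22, 2.40 and 6.29 at 0.5 h. A gene not yet raised in WT cells leaves little room for a lower level in mutant cells. Whether the later difference goes with a later rise was not tested. Il23a and Lif also moved from -0.29 and -0.49 at 0.5 h to their values at 1 h (adjusted p = 8.19e-04 and 1.49e-07), and Fosl1, of the FOS family, from 0.17 (adjusted p = 3.10e-04). Fosl2, of the same family, differed by -0.23 at 1 h and by -1.49 at 2 h (adjusted p = 1.56e-07 for the change). From 1 h to 2 h the differences of Il1a, Il1b, Errfi1 and Hcar2 stood further out at -2.27, -2.18, -2.41 and -1.94, and those steps passed (adjusted p = 0.0412, 0.0042, 0.0456 and 0.0355). By their replicate numbers, 3 of the 4 WT libraries at 2 h belong to the first group of replicates. Within that group alone the step of Hcar2 was 0.06 and did not pass (adjusted p = 0.844), while those of Il1a, Il1b and Errfi1 passed (0.46, 0.59 and 0.71, as the difference at 1 h minus that at 2 h). With the group as a term at every time, the step of Il1a missed the threshold (adjusted p = 0.0501). Ifnb1 differed by -0.01 without LPS and -0.12 at 0.5 h, then by 1.25 at 1 h and 1.00 at 2 h. Its WT mean was 4.61 without LPS and 4.75 at 0.5 h. Its change from 0.5 h passed (adjusted p = 7.08e-07) and that to 2 h did not (adjusted p = 0.5). The difference of Il10 grew after 1 h, from -0.53 at 1 h to -2.57 at 2 h (adjusted p = 4.83e-12 for the change). Map3k8 mRNA did not differ detectably at 1 h but was lower in mutant cells by -0.25 at 0.5 h and -0.31 at 2 h (adjusted p = 0.00383 and 4.61e-05).

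**Figure D4:**
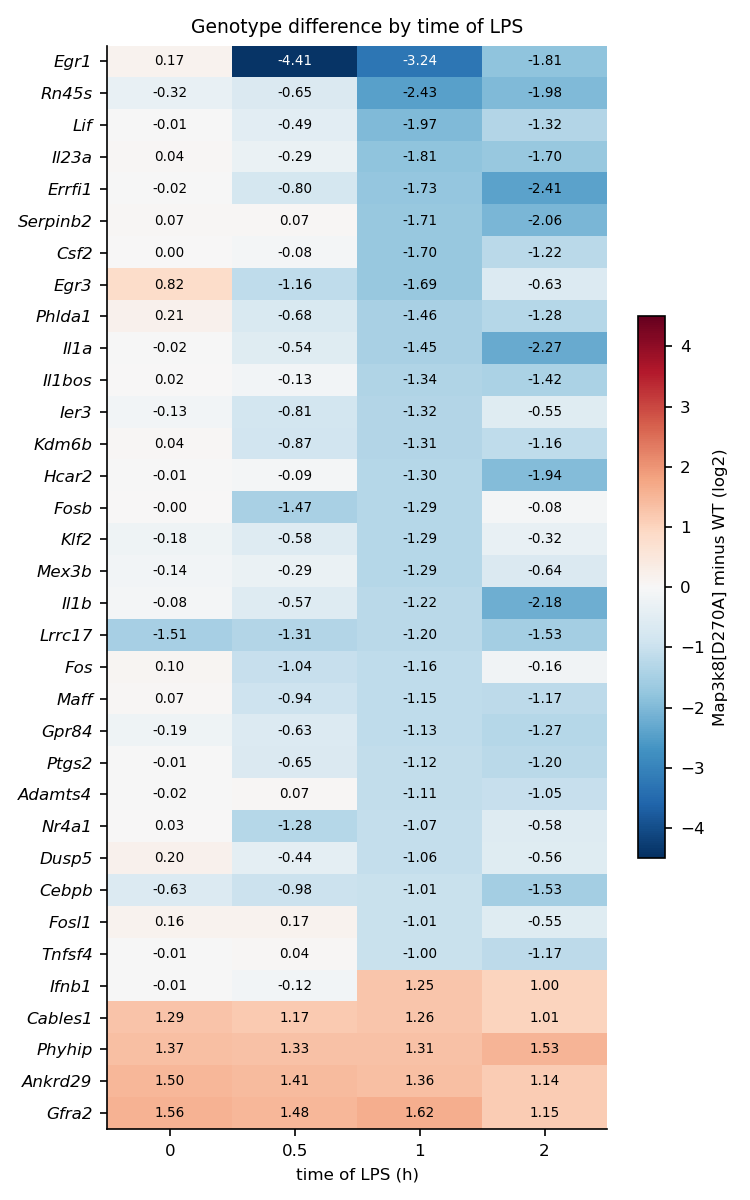
Difference between Map3k8[D270A] and WT cells (color and printed value, log2) for the 34 called genes (rows, ordered by the value at 1 h) at 0, 0.5, 1 and 2 h of LPS (columns). Most of the lower genes are near 0 without LPS, whereas Lrrc17, Cebpb, Cables1, Phyhip, Ankrd29 and Gfra2 differ in the same direction at every time. Egr3 also differs at every time, but is higher in mutant cells without LPS.

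To relate the 1 h comparison to the LPS response without the libraries it uses, response sets were taken from WT cells at 0.5 and 2 h against unstimulated WT cells. Cultures may be shared between times through the replicate numbers. WT cells raised 74 genes at least 2-fold at 0.5 h (0.623% of genes tested), and 43 of them were lower in mutant cells at 1 h (58.1%) and 2 higher (2.7%), with a median difference of -0.428. The medians were -0.524 and -0.378 within the first and the second group of replicates and -0.00341 in unstimulated cells. Of 863 genes raised at 2 h but not at 0.5 h (7.26%), 142 were lower (16.5%) and 34 higher (3.94%), with a median of -0.0532, which was -0.105 in the first group and 0.00442 in the second. Of 391 genes that LPS lowered at 2 h in WT (3.29%), 12 were lower (3.07%) and 30 higher (7.67%). Over all genes tested 4.64% were lower and 5.14% higher. The shares that were higher, and the share lower in this last set, are not read as a result about the sets. Among these sets, the share lower in mutant cells at 1 h was largest in the set that WT cells raised earliest, although 31 of those 74 genes were not lower. The sets were chosen by WT cells alone, and genes raised only by 2 h may not yet have been raised at 1 h. The difference between sets was not tested. Of the 29 genes called lower, 16 were in the earliest set and 8 in the next.

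The promoters of 5 lower genes of small p (Lif, Klf2, Mex3b, Serpinb2 and Ier3) are shown, since these genes were lower together at 1 h. Each is 300 bases, 250 before and 50 from the start site of the RefSeq entry (GRCm38.p6, plus strand), 5′ to 3′, with matches in capitals to an AP-1 site (TGANTCA), a cAMP response element (TGACGTCA), an ETS site (CCGGAAGT), the SRF CArG box or an NF-κB site, on either strand. They are Lif at chr11:4257318-4257617, Klf2 at chr8:72318812-72319111, Mex3b at chr7:82867083-82867382, Serpinb2 at chr1:107511173-107511472 (the more upstream of 2 entries, inside the gene span given above and not at its first base) and Ier3 at chr17:35821463-35821762.
Lif: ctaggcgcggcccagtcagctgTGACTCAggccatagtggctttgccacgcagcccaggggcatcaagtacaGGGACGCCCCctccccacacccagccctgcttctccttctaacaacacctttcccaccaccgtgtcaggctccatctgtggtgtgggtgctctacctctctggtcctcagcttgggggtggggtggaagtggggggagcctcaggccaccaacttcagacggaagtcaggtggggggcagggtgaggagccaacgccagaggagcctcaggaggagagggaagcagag
Klf2: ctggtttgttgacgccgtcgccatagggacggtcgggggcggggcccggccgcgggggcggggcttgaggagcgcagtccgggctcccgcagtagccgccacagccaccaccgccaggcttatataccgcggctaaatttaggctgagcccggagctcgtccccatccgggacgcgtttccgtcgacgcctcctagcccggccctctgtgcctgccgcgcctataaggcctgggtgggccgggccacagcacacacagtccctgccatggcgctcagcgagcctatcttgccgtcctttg
Mex3b: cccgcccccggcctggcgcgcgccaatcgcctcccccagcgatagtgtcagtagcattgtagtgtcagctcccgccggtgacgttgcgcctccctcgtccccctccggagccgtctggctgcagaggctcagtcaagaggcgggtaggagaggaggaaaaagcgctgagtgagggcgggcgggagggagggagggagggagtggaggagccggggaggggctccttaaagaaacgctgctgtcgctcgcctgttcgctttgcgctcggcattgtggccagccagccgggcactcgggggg
Serpinb2: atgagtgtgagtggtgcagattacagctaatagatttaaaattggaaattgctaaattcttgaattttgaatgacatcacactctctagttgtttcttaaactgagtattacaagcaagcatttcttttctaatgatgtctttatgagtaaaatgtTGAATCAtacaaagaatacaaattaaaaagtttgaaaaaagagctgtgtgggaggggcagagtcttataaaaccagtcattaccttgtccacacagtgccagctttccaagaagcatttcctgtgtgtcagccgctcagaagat
Ier3: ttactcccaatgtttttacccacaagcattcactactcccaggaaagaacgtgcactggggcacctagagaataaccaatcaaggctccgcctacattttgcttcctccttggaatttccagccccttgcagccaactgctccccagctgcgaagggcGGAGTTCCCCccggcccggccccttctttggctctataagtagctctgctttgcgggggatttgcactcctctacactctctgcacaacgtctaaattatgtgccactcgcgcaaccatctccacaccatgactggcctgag

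The Lif window held an AP-1 match at position -228 and an NF-κB match at -178 from the start, Serpinb2 an AP-1 match at -94 and Ier3 an NF-κB match at -92. No letters of these motifs were found in the windows of Klf2 and Mex3b. Of the 29 lower genes 19 had a promoter entry. An AP-1 match was found in 3 of the 19 (Il1a, Lif and Serpinb2), against 7.81% of all 32851 promoter entries and 6.31% of tested genes with one. An NF-κB match was found in 6 (Fos, Fosb, Ier3, Lif, Maff and Nr4a1; 8.46% of entries, 12.3% of tested genes), a cAMP response element in 2 (Errfi1 and Maff; 1.79% and 3.75%) and a CArG box in 1 (Dusp5; 1.63% and 1.47%). No ETS match was found in the 19 (3.89% and 9.59%). The Ifnb1 window held an NF-κB match. These counts describe letters in short windows and were not tested.

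Differences in the 2 groups of replicates had the same direction for all 34 called genes, but not the same size. Since these genes were called over both groups together, the shared direction is a description and no separate support. At least 2-fold lower and higher genes numbered 41 and 8 in the first group alone and 21 and 5 in the second. By adjusted p alone the lower and higher genes numbered 647 and 581 in the first group and 108 and 46 in the second. The gene lists followed this: lower members in the first and second group alone were 12 and 6 of the cytokine genes, 11 and 2 of the chemokine genes and 12 and 5 of the AP-1 list, but 15 and 12 of the other early transcription factor genes and 11 and 8 of the ERK feedback genes. Within a genotype, libraries of the second group lay mostly further apart (root mean square difference 0.156 to 0.264, against 0.124 to 0.175 in the first). These counts thus depend on spread as well as on the size of differences, and the part of each was not tested. The difference between genotypes was unlike in the 2 groups for 13 genes at an adjusted p below 0.05, of which Csf2 and Il1bos were called at 1 h. Csf2 differed by -2.30 in the first group and -1.10 in the second (adjusted p = 0.012 for the change), and Il1bos by -1.79 and -0.90 (adjusted p = 0.0426). Il23a differed by -2.46 and -1.16, Hcar2 by -1.75 and -0.85 and Serpinb2 by -2.07 and -1.34. None of these changes passed the test (adjusted p = 0.0789, 0.0867 and 0.223). Egr1 differed by -3.27 and -3.21, Klf2 by -1.37 and -1.21 and Ifnb1 by 1.18 and 1.33. Adamts4 was lower in the first group (-2.17) and differed by -0.05 in the second, a change that did not pass the test (adjusted p = 0.117). Gfra2 and Tnfsf4 did not pass in the second group alone (1.56 and -0.95, adjusted p = 0.125 and 0.067), nor Cebpb in the first (-0.86, adjusted p = 0.0686). Rn45s, the precursor of ribosomal RNA, ranged from 14.88 to 19.38 in WT and from 14.21 to 15.07 in mutant libraries with WT 4, 6 and 7 above 18, and its difference of -2.43 ± 0.73 (adjusted p = 0.023) did not pass when any of WT 4, 6 and 7 or mutant 6 was left out (adjusted p = 0.1, 0.105, 0.0682 and 0.0546).

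**Figure D5:**
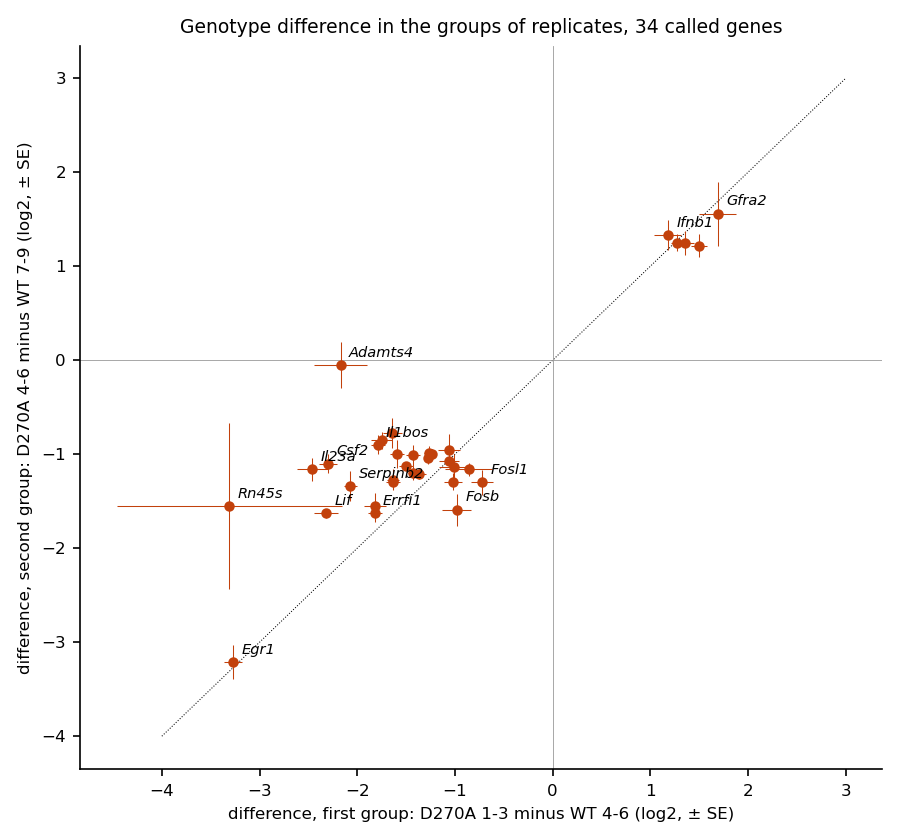
Difference between genotypes in the first group of replicates (x axis, mutant 1 to 3 minus WT 4 to 6) and in the second (y axis, mutant 4 to 6 minus WT 7 to 9), in log2 with SE, for the 34 called genes. The dotted line marks equal values. Csf2, Il1bos and Adamts4 lie above the line, with smaller differences in the second group, and Egr1 lies near it.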

How the data were processed

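Single-end reads were mapped by the authors to mm10 RefSeq genes. The submitters' processing notes name STAR 2.5.1b, RSEM 1.2.29 and DESeq2 1.10.1. The deposited values used here are log2 levels that the authors normalized across libraries, for 18098 genes, by a transformation that no source used here states, so differences may be drawn together or lie on another logarithm. A single value above 25, in a library outside this comparison, was set to missing. Groups came from the labels. Genes that reached 10 on the linear scale in 4 or more libraries were tested with limma 3.58.1 (R 4.3.3), without a trend, in a fit of the 62 libraries of WT, Map3k8[D270A] and Elk1-/-Elk4-/- cells with 1 mean per genotype and time, and p-values were adjusted by Benjamini-Hochberg over all 11884 genes. Interaction contrasts tested changes between times. The fit was run on simulated data, and no result here rests on the outcome. Errors of differences are SE of this fit.

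Named genes are all those called at 1 h, up to 4 members per list with the smallest adjusted p below 0.05 (otherwise the 2 with the largest difference), Map3k8, Ifnb1, Tnf, Il10, Fos and Egr1, and the 5 genes per direction with the smallest p under 2-fold. Some of these genes are not reported here. Further list members were named after their values were seen, as contrasts to these. Members and lists were chosen with earlier results of these data known. Alternatives were other sets of libraries in the fit, a trended spread, other filters, medians made equal, quantile normalization, a replicate block, each group of replicates alone or as a term, culture as a correlated block, other thresholds and leaving out each culture. Positions and promoters are from RefSeq for GRCm38.p6, with 17293 genes matched by symbol, 732 by synonym and 73 not matched.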

Additional observations from a re-analysis of the deposited data

Results flagged for a closer look

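In groups of 6 libraries, a single library lay far from the other 5 in 2 of 174 groups of named genes: mutant replicate 4 was the highest of its group for Hspa5 (15.00) and for Actg1 (16.66). Chance alone would mark about 1 in 20 groups.

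The difference between genotypes also depended on time, by a test of the change itself. It differed by at least 1 from that in unstimulated cells in 29 genes, from that at 0.5 h in 12 and from that at 2 h in 32. Against unstimulated cells the change was -3.41 for Egr1, -1.26 for Fos, -0.57 for Tnf and 1.26 for Ifnb1. Against 0.5 h it was 1.17 for Egr1 and 1.38 for Ifnb1. Against 2 h it was -1.43 for Egr1, -0.99 for Fos and 2.04 for Il10.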

How the results depend on the processing

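The labels give replicate numbers 4, 5 and 6 in both genotypes. Libraries with the same number did not deviate together (correlations of -0.191, -0.148 and -0.453), so the numbers were not taken to pair them. With the number as a replicate block, 79 genes were at least 2-fold lower, 20 at least 2-fold higher and 925 lower by adjusted p alone, and 33 of the 34 called genes passed, all but Rn45s. Numbers 4 to 6 are the first group of replicates in WT and the second in mutant cells. Within a number, the block thus compares groups as well as genotypes. At a 1.5-fold threshold 88 genes were lower and 19 higher, and the interactions with no LPS, 0.5 h and 2 h numbered 74, 38 and 159; at 0.693, added after the data were seen, they numbered 64, 12, 59, 27 and 102. The first group of replicates alone at every time, also added, gave 47, 28 and 57 interactions, and the group as a term 29, 13 and 33. A filter at a linear value of 50 left 2 genes at least 2-fold higher, since fewer low genes were tested, and the first group of replicates alone gave 8. The second group alone gave 108 lower and 46 higher genes by adjusted p alone. With each culture left out in turn the counts were 26 to 31 and 5 to 6 at 2-fold, 389 to 683 and 409 to 815 by adjusted p alone, and 26 to 32, 10 to 16 and 27 to 38 for the interactions.

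In a fit of the 12 libraries alone, Cxcl3, Ccl3, Zc3h12a, Hpgds and Adamts4 also did not pass (adjusted p = 0.0533, 0.0756, 0.0527, 0.104 and 0.0839). Dnaja1, Actg1 and Hpgds did not pass in 17, 16 and 13 of 25 settings. No called gene changed direction under the settings tried. Differences that changed sign were near 0: Actg1 was 0.09 and Ddx3y 0.0015 under quantile normalization, Ddx3y 0.02 in the first group alone, Uty 0.06 under the replicate block, and Map3k8 -0.0039, -0.01 and -0.0003 without WT 4, WT 8 and mutant 2. The cause was not tested.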
